A study of Mus musculus with 18 samples.

Results

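The DNA replication machinery was followed here as 41 genes, chosen by name from its known parts and all found once in a table of 14419 genes. Adult male C57BL/6 mice had been given tamoxifen or its vehicle, corn oil, and the RNA of blood-forming cells sorted from their marrow was sequenced. The tamoxifen groups were short-term stem cells (ST) and long-term stem cells (LT), both after 2 weeks, and multipotent progenitors (MPPs) after 1 week. The matching oil groups had the same populations and durations. Each of the 6 groups held 3 libraries, which the submitters' design text calls biological replicates, so 18 libraries were used. The labels name no allele or transgene in any group, and the sources used here do not give the gates of the sort or the number of mice behind a library. MPPs differ from LT and ST cells in population and in duration together, and these cannot be told apart.

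To copy its genome once per division, a cell first marks origins. The origin recognition complex (Orc genes) with Cdc6 and Cdt1 loads the ring of Mcm2 to Mcm7, a step called licensing. At the start of S phase, Mcm10, Cdc45 and the GINS complex turn that ring into an active helicase, polymerase alpha with its primase lays primers, and polymerases delta and epsilon extend them on the sliding clamp PCNA, which replication factor C loads. RPA coats exposed single strands, Fen1 and Lig1 finish the lagging strand, and ribonucleotide reductase, Tyms, Dut and Tk1 serve the supply of nucleotides. Most long-term stem cells rest outside the cell cycle, and progenitors cycle more. In RNA from a population, a larger share of cells in S phase and more replication RNA per cell cannot be told apart.

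Many of these genes are known targets of E2F transcription factors, and the letters of an E2F-type site were counted in the promoters of the members and of all genes. RefSeq promoters of build GRCm38.p6, from 250 bases before the start site to 50 bases after it, were found for 34 of the 41 members (40 promoters). Spellings of 8 letters were searched on both strands, which are TTTCCCGC, TTTCGCGC, TTTGCCGC and TTTGGCGC. At least 1 lay in the promoters of 13 of the 34 members (38.2%), against 4.68% of 9344 genes of the expression table with a promoter. Counted by promoter, the share was 32.5% in members and 2.26% in all 32851 promoters. The members that held them were Orc1, Cdc6, Cdt1, Mcm3, Mcm5, Mcm6, Mcm7, Gins3, Pola1, Pold1, Pole2, Rfc3 and Lig1. The letters CCAAT, the core of NF-Y sites, were in 60% of the members' promoters and 37.4% of all 32851, on either strand. That wider set includes genes absent from the expression table, and no CCAAT share limited to the table's genes was computed. CCAAT letters overlapped E2F-type letters in 1 of the members' promoters. Of the 9 members that rose with tamoxifen in ST cells, described below, 8 had a promoter in the set. E2F-type letters were in 3 of the 8, a share close to the 38.2% of all members with a promoter. The 3 are licensing genes and are shown as examples. Orc2 and Mcm2, licensing genes that also rose, held no such letters. Capitals mark the E2F-type letters on either strand, and where 2 matches overlap the capitals run on. The Mcm6 promoter lies at chr1:128359656-128359955 on the minus strand, with matches that begin 110, 106 and 47 bases before the start site. The Mcm5 promoter lies at chr8:75109259-75109558 on the plus strand, with overlapping matches 153 and 149 bases before the start. The Mcm3 promoter lies at chr1:20820263-20820562 on the minus strand, with both matches after the start, at 19 and 38 bases.
Mcm6: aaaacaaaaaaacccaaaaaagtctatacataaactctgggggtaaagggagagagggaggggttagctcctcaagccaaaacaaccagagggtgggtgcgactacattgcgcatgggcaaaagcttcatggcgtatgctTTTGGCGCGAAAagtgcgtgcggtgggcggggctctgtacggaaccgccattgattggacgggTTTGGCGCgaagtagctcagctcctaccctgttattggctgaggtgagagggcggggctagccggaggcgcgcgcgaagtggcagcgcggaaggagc
Mcm5: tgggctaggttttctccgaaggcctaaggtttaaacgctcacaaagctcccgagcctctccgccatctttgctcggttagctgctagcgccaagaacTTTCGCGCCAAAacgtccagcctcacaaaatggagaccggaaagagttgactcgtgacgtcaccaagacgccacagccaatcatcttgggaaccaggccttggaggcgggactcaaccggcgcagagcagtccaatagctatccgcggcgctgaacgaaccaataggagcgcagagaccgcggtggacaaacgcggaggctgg
Mcm3: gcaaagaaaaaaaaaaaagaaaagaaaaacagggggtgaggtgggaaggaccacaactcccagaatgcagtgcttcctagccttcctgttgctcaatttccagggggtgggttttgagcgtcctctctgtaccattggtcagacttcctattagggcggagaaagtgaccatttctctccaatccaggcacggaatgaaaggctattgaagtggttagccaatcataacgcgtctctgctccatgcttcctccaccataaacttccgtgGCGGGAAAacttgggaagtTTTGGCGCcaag
A match is a description of letters and was not tested as a site.

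The libraries held between 2728800 (ST oil library A) and 5279821 (MPP tamoxifen library 1) reads in listed genes, and the members drew from 0.245% to 0.421% of them. Depth did not overlap between the ST groups, at 2728800 to 3267591 reads with oil and 3611749 to 3982982 reads with tamoxifen. The part of depth in the ST comparison was not tested. Values are the deposited normalised values, which have the form of CPM (reads per library total) with a further scaling factor for each library, and no member fell below 16 reads in any library. LT tamoxifen library A stood apart from its group, with a chi-square per degree of freedom of its reads over all genes of 27.1 and 26.1 against libraries B and C, where other pairs within a group reached at most 10.6. Population markers differed in the way the names say in part. Flt3, a progenitor receptor, was at 529 to 703 CPM in MPPs, 52 to 197 CPM in ST cells and 22.4 to 119 CPM in LT cells. Slamf1, a stem cell marker, was at 0.405 to 1.47 CPM in MPPs and at 8.06 to 54 CPM in ST and LT cells. The full list of 10 stem cell markers, which includes both genes, summed lowest in ST cells, at 1820 to 2494 CPM in oil libraries. It summed to 3238 to 3652 CPM in LT oil and 3275 to 3671 CPM in MPP oil libraries.

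Across the 6 groups, the ST tamoxifen cells held the highest mean of 24 of the 41 members and the lowest mean of none. LT oil cells held the lowest mean of 26, and ST oil cells that of 5 (Orc2, Cdt1, Mcm2, Mcm4 and Rpa1). The highest mean of Mcm2 was in LT tamoxifen cells, and those of Mcm4, Mcm6 and Rpa1 were in MPP tamoxifen cells. Such shares were not computed over all genes. Set against the mean of the LT oil libraries on the log2(CPM + 1) scale, the median member stood at 0.73 to 0.78 in ST tamoxifen libraries and at 0.31 to 0.48 in ST oil libraries. In LT cells the same median was 0.23 to 0.35 with tamoxifen and -0.14 to 0.15 with oil. It was 0.43 to 0.51 in MPP tamoxifen libraries and 0.24 to 0.55 in MPP oil libraries. The tamoxifen and oil libraries thus did not overlap on this median in ST and LT cells and did overlap in MPPs. As a share of reads the groups did overlap, with the members at 0.399% to 0.421% of reads in ST tamoxifen and 0.327% to 0.411% in ST oil libraries, and at 0.289% to 0.329% in LT tamoxifen and 0.245% to 0.295% in LT oil libraries. Members also shared variation between libraries of 1 group: the deviations of a member from its group mean correlated with those of the other members' mean with a median Pearson r of 0.44 (across 18 libraries, a description), and 35 of 41 values of r were above 0. LT oil library C and ST oil library C were the lowest of their groups in the summed members, and the values without each are given below.

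**Figure D1:**
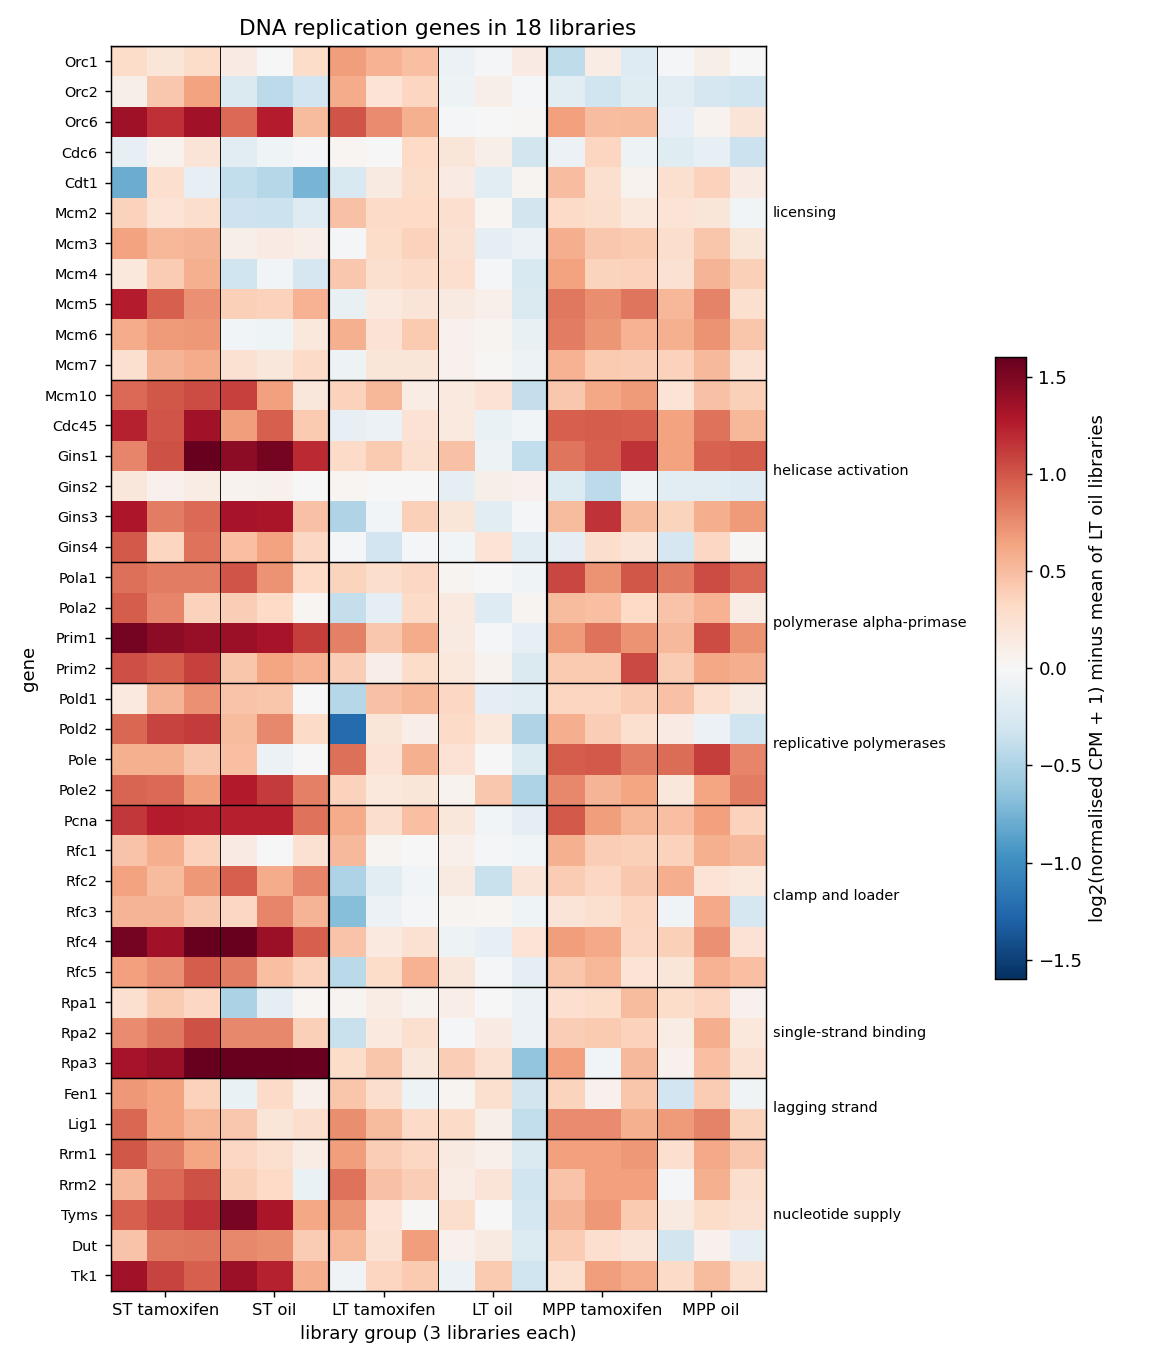
Level of each of the 41 members (rows, by role) in each of the 18 libraries (columns, 3 per group), as log2(normalised CPM + 1) minus the mean of the 3 LT oil libraries. Red is above that mean and blue below it. The ST tamoxifen columns are red in most rows, and the licensing rows of the ST oil columns are pale or blue while rows such as Rpa3, Rfc4 and Prim1 are red in both ST groups.

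In ST cells, tamoxifen raised the RNA of 9 members and lowered none, and 6 of the 9 were licensing genes. These were Orc2 and the helicase subunits Mcm2, Mcm3, Mcm4, Mcm5 and Mcm6. The others were Rrm1 and Rrm2, the large and small subunits of ribonucleotide reductase, and Rpa1, the large subunit of RPA. The rise was 1.38-fold to 1.64-fold. Over all genes of the same comparison, 6.01% passed as higher and 3.6% as lower (limma, adjusted p under 0.05). Of the 41 members, 34 had a log2 fold change above 0, with a median of 0.25, and the median over all genes was 0.01. With quantile normalisation the members' median was 0.16 and 30 members were above 0.

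Mcm6 stood at 278, 295 and 298 CPM in the ST tamoxifen libraries, against 177, 175 and 206 CPM in the ST oil libraries. Every tamoxifen library was above every oil library. The group means were 290.3 ± 10.7 CPM with tamoxifen and 186.3 ± 17.3 CPM with oil (SD, n = 3 each), a log2 fold change of 0.64 (SE 0.12, limma adjusted p = 0.0017). Orc2, a core subunit of the origin recognition complex, was at 67.1, 85.3 and 99.2 CPM with tamoxifen and at 53.5, 46.9 and 50.6 CPM with oil. Its tamoxifen libraries were more spread, and the lowest of them was still above the highest oil library. The log2 fold change was 0.71 (SE 0.15, adjusted p = 0.0034). Mcm2 averaged 158 ± 8.48 CPM with tamoxifen and 105.4 ± 5.6 CPM with oil, and Mcm4 averaged 160.4 ± 22 CPM and 105.7 ± 11.2 CPM in the same groups. Mcm3 and Mcm5 rose by 0.46 and 0.54 on the log2 scale (adjusted p = 0.0224 and 0.024). Mcm7, the sixth subunit of the ring, averaged 156.1 ± 19.1 CPM with tamoxifen and 133.2 ± 5.39 CPM with oil, and its groups overlapped (adjusted p = 0.278). All 11 licensing genes had a log2 fold change above 0, with a median of 0.46, and those that did not pass were Orc1, Orc6, Cdc6, Cdt1 and Mcm7.

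Rrm1 was at 285, 253 and 221 CPM in ST tamoxifen libraries, against 180.2, 170.5 and 155 CPM in ST oil libraries. The groups did not overlap, and the log2 fold change was 0.58 (SE 0.13, adjusted p = 0.0063). Rrm2, whose protein is made and destroyed with the cell cycle, was at 71.9, 94.7 and 102 CPM with tamoxifen and at 65, 62.5 and 46.2 CPM with oil. The lowest tamoxifen library lay close above the highest oil library, and the log2 fold change was 0.62 (SE 0.18, adjusted p = 0.0299). That adjusted p spanned 0.0155 to 0.146 over the alternatives and the call was lost with quantile normalisation, without the trend and robust settings, and without ST oil library C, ST tamoxifen library B or ST tamoxifen library C. Tyms, which makes thymidylate, averaged 154.8 ± 10.8 CPM with tamoxifen and 170.1 ± 51.3 CPM with oil. Tk1 and Dut, of thymidine salvage and dUTP removal, had log2 fold changes of 0.07 and 0.08 and did not pass.

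Rpa1 stood at 72.4, 81 and 76.4 CPM in the ST tamoxifen libraries, against 42.3, 54.2 and 61.7 CPM in the ST oil libraries. The groups did not overlap (log2 fold change 0.55, SE 0.14, adjusted p = 0.0166). The adjusted p spanned 0.0080 to 0.12 over the alternatives, and the call was lost with quantile normalisation, with only the groups compared in the fit, and without ST oil library A, ST tamoxifen library B or ST tamoxifen library C. Its partners in the RPA trimer did not pass: Rpa2 had a log2 fold change of 0.23 and Rpa3 one of -0.14. PCNA itself averaged 481.8 ± 22.2 CPM with tamoxifen and 453.9 ± 65.5 CPM with oil, a log2 fold change of 0.10 (SE 0.14, adjusted p = 0.71).

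None of the 6 helicase activators passed in ST cells, nor any of the 4 genes of polymerase alpha-primase, the 4 of the replicative polymerases, the 6 of the clamp and its loader or the 2 of the lagging strand. The smallest p among these was that of Cdc45, at 45.9 ± 5.35 CPM with tamoxifen and 32.1 ± 6.21 CPM with oil (log2 fold change 0.51, adjusted p = 0.0725). The 7 members below 0 were Gins1, Gins3, Pole2, Rfc2, Rfc3, Rpa3 and Tyms, none past the threshold, and the lowest was Pole2 at -0.23. In 16 of the 41 members all 3 tamoxifen libraries were above all 3 oil libraries, and in none were all below. Over all genes, 14.8% had such a gap upward, and the share with a gap downward is not given here.

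Orc2, Mcm2 and Mcm6 passed under all 15 other settings tried, Mcm4 and Rrm1 under 14, Rpa1 and Rrm2 under 10, and Mcm3 and Mcm5 under 9. Leaving out ST tamoxifen library C left 5 calls (Mcm2, Mcm5, Mcm6, Orc2 and Rrm1), and quantile normalisation left 4 (Mcm2, Mcm4, Mcm6 and Orc2). Leaving out ST oil library C left 8, with a members' median of 0.19 and 29 members above 0.

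Of 43 other replication genes, 6 rose in ST cells and none fell. They were Dnmt1 and Uhrf1, which keep DNA methylation through replication, the topoisomerase Top2a, the initiation and checkpoint factor Topbp1, the fork protein Clspn and the chromatin assembly subunit Chaf1a. Dnmt1 was at 375, 383 and 396 CPM with tamoxifen and at 231, 259 and 259 CPM with oil. The groups were far apart (log2 fold change 0.62, SE 0.11, adjusted p = 0.0012). Of 22 regulators of S phase entry, 5 rose and none fell: Ccna2 (cyclin A2), Ccne1 (cyclin E1), Tfdp1 (the partner of E2F proteins), E2f4 and E2f6. Ccna2 was at 219.6, 229.3 and 242 CPM with tamoxifen and at 123, 132 and 102 CPM with oil (log2 fold change 0.95, adjusted p = 0.000851).

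Markers of other cells moved in the same ST comparison. Of 13 erythroblast markers Klf1, Rhag and Tfrc rose, and the list summed to 751 to 907 CPM with tamoxifen and 583 to 786 CPM with oil. The 10 neutrophil genes summed to 2837 to 3411 CPM with tamoxifen and 1529 to 1980 CPM with oil, with no gene passing. The part of these cells in the rise of the members was not tested.

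**Figure D2:**
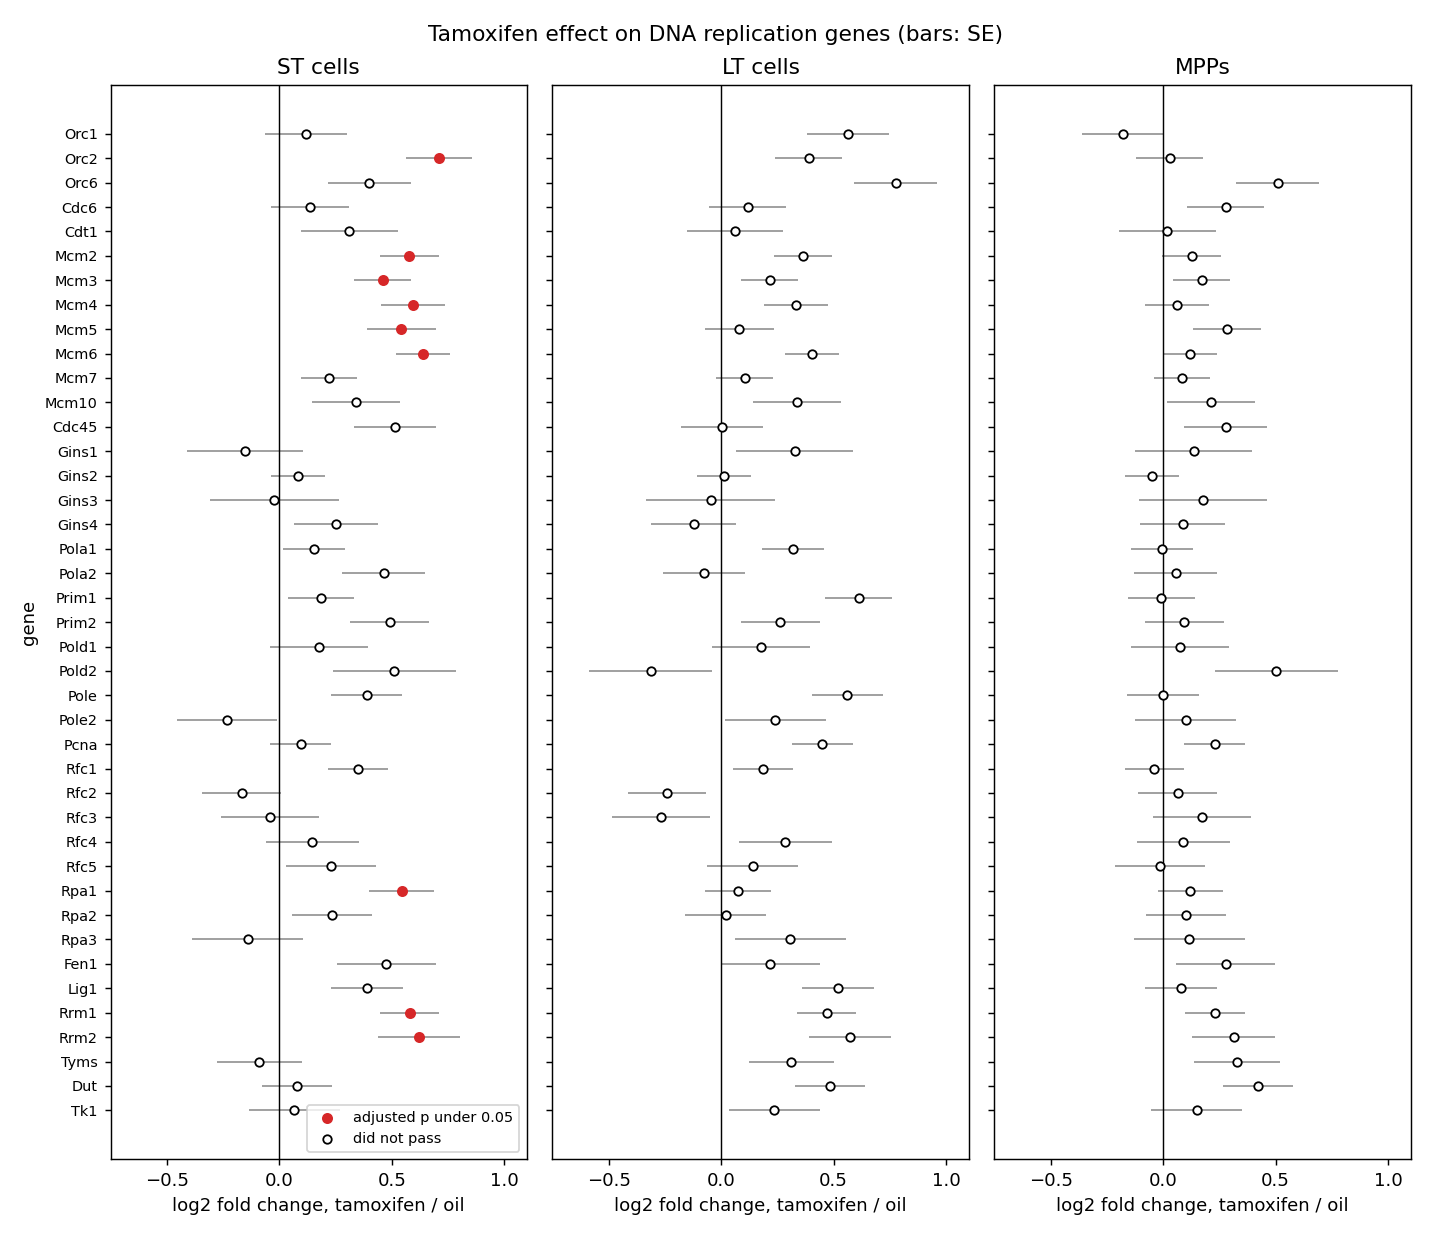
Log2 fold change of tamoxifen over oil for each of the 41 members (rows) in ST cells, LT cells and MPPs, with bars for the standard error; filled red points passed an adjusted p of 0.05. The 9 red points are all in ST cells, and in all 3 panels most points lie right of 0.

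In LT cells no member passed (limma, adjusted p under 0.05), where 0.139% of all genes were called higher and 0.277% lower at that threshold. At an unadjusted p under 0.05, a looser cut whose share over all genes is not given here, there were 14 members. EdgeR on the recovered reads called 1 member and DESeq2 called 5, all higher. The values still leaned upward: 35 of 41 log2 fold changes were above 0, with a median of 0.24, against -0.02 over all genes. In 11 members the tamoxifen libraries were all above the oil libraries, where 9.04% of all genes showed this. In none were they all below, and that share over all genes is not given here. Without LT tamoxifen library A, which stood apart, the median was 0.28, 37 members were above 0 and 0 were called. Without LT oil library C the median was 0.13 and 29 members were above 0.

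Orc6, the smallest subunit of the origin recognition complex, had the smallest p in LT cells. It was at 43.9, 36.7 and 32 CPM with tamoxifen, against 20.9, 21.4 and 21.6 CPM with oil. The oil libraries lay within 1 CPM of each other and all tamoxifen libraries were above them. The means were 37.5 ± 5.97 CPM with tamoxifen and 21.3 ± 0.33 CPM with oil (log2 fold change 0.78, SE 0.19, adjusted p = 0.0537). Its adjusted p ranged from 0.0101 to 0.193 over the alternatives, and it passed without LT tamoxifen library B, in edgeR, in DESeq2 and with quantile normalisation, among others. Prim1, the catalytic primase subunit, was next, at 73.9, 56.6 and 63.6 CPM with tamoxifen and at 46.4, 41.3 and 38 CPM with oil. Its groups did not overlap either (log2 fold change 0.61, SE 0.15, adjusted p = 0.0554). The 5 members that DESeq2 called were Orc6, Prim1, Mcm6, Pole and Rrm1.

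All 11 licensing genes and all 5 genes of nucleotide supply had log2 fold changes above 0 in LT cells, with medians of 0.33 and 0.47. Dut, Rrm1 and Rrm2 were at 0.48, 0.47 and 0.57, with no overlap between groups. The helicase activators had a median of 0.01, with Cdc45 at 19.6 ± 2.95 CPM with tamoxifen and 19.5 ± 2.03 CPM with oil. The 6 members below 0 were Gins3, Gins4, Pola2, Pold2, Rfc2 and Rfc3. Pold2, an accessory subunit of polymerase delta, was at 11.7, 33.2 and 31.1 CPM with tamoxifen and at 36.2, 32.7 and 20.5 CPM with oil, so that 1 tamoxifen library stood apart. Among the 43 other replication genes, 1 passed in LT cells, Wdhd1, which links the helicase to polymerase alpha, with a log2 fold change of 0.64 (adjusted p = 0.0276). None of the 22 regulators passed (limma), and 8 met the looser cut of an unadjusted p under 0.05. The neutrophil genes summed to 40.7 to 96.4 CPM with tamoxifen and 147 to 209 CPM with oil in these cells, the opposite order from ST cells. The stem cell markers summed to 2289 to 2642 CPM with tamoxifen and 3238 to 3652 CPM with oil, Kit among them passing as lower. The erythroblast markers summed to 1348 to 1887 CPM with tamoxifen, the highest in library A, and to 1314 to 1527 CPM with oil. Their part was not tested.

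In MPPs no member passed (limma, adjusted p under 0.05, and edgeR and DESeq2 each called 0). At that threshold limma called 0.0347% of all genes higher and 0.0208% lower. At an unadjusted p under 0.05, a looser cut whose share over all genes is not given here, there were 2 members. The smallest p was again that of Orc6, at 34, 30.5 and 30.7 CPM with tamoxifen and at 19.3, 22.2 and 24.7 CPM with oil. Its groups did not overlap (log2 fold change 0.51, SE 0.19, adjusted p = 0.703). Dut was the other, at 79 ± 5.83 CPM with tamoxifen and 59 ± 7.65 CPM with oil (log2 fold change 0.42). Of the 41 members 35 were above 0, with a median of 0.12, and 0.00 over all genes. Without MPP oil library 3 the members' median was 0.06 with 27 above 0, and without MPP oil library 2 it was 0.19 with 39 above 0. Mcm6, which led in ST cells, was at 298 ± 27.7 CPM with tamoxifen and 274.1 ± 26.3 CPM with oil in MPPs. In 7 of the 41 members the tamoxifen libraries were all above the oil libraries, and over all genes 7.66% showed this. The neutrophil genes summed to 979.7 to 2782 CPM with tamoxifen and 932.7 to 1725 CPM with oil, and the erythroblast markers to 406 to 1076 CPM and 478 to 589 CPM in the same order.

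The difference of the tamoxifen effect between populations was tested directly, and no member passed in any of the 3 tests (limma, edgeR and DESeq2 each 0). For ST minus LT, 0.0416% of all genes passed as higher and 0.0139% as lower at an adjusted p under 0.05. At an unadjusted p under 0.05, a looser cut whose share over all genes is not given here, there were 4 members. The smallest p was that of Rpa1, whose effect was 0.47 larger in ST cells (log2, SE 0.20, adjusted p = 0.323). For ST minus MPP, 0.00694% of all genes passed as higher and 0.0% as lower at the adjusted threshold. At the looser, unadjusted cut there were 6 members. Orc2 led with a difference of 0.68 (SE 0.21, adjusted p = 0.207), followed by Mcm6 with 0.52 (SE 0.17, adjusted p = 0.233). For LT minus MPP, 0.0% of all genes passed as higher and 0.0% as lower at the adjusted threshold. At the looser, unadjusted cut there were 4 members. Prim1 had the smallest p there, with a difference of 0.62 (SE 0.21, adjusted p = 0.788). So the calls in ST cells were not shown to differ from the effects in LT cells or MPPs. Of the 41 members 25 (61.0%) were above 0 in all 3 tamoxifen comparisons and 0 were below in all 3. Over all genes 17.9% were above 0 in all 3, and the share below 0 in all 3 was not computed. These 3 comparisons share no library. The sources used here do not say whether ST and LT libraries of the same letter came from the same mice. Members also varied together within groups, as given above, so they are not independent of each other.

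**Figure D3:**
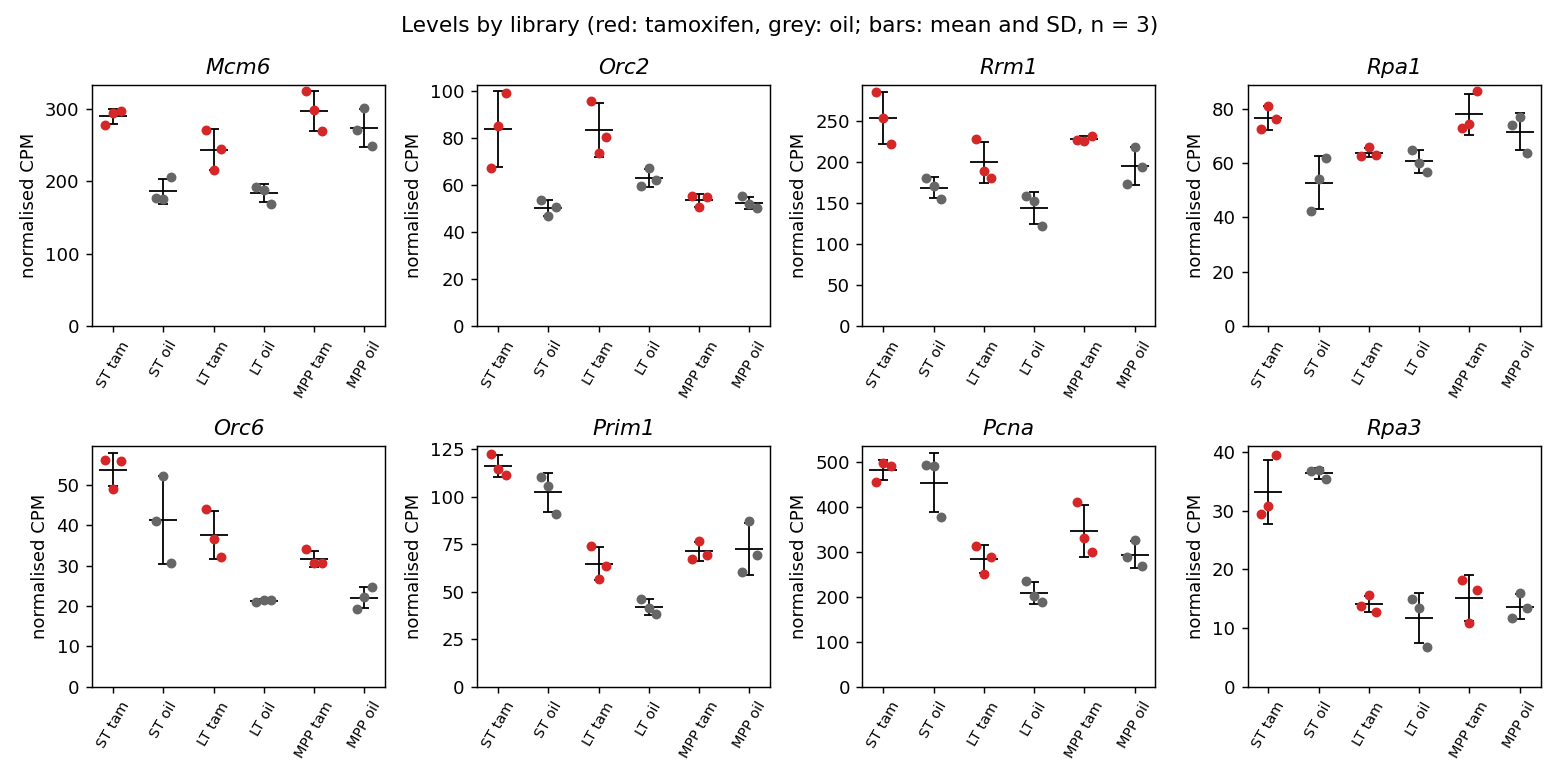
Normalised CPM of 8 members in each library (points, red for tamoxifen and grey for oil), with the mean and SD of each group of 3. In ST cells the tamoxifen libraries of Mcm6, Orc2, Rrm1, Rpa1 and Prim1 are all above the oil libraries. In LT cells those of Mcm6, Orc2, Rrm1, Orc6, Prim1 and Pcna are, and in MPPs those of Rrm1 and Orc6 are. Pcna and Rpa3 are high in both ST groups relative to LT and MPP groups.

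The oil libraries give the levels of the machinery without tamoxifen, and the 3 population comparisons below share these groups with each other. In ST cells 19 members were higher than in LT cells and 0 lower, where 12.5% of all genes were higher and 16.0% lower, and the median log2 fold change was 0.48 for members and 0.01 for all genes. With quantile normalisation or only the groups compared in the fit, Cdt1 passed as lower in ST than in LT cells, and without LT oil library C Mcm2 did. In MPPs 13 were higher than in LT cells and 0 lower, where 7.76% of all genes were higher and 7.01% lower. MPPs against ST cells gave both directions, with 7 members higher and 9 lower, where 16.8% of all genes were higher and 13.9% lower. Libraries without LT oil library C gave 5 calls in MPPs against LT cells, those without LT oil library B gave 8 and those without MPP oil library 2 gave 4. Of the 19 members higher in ST than in LT cells, 15 passed under all 15 other settings, and Mcm5, Mcm10, Prim2 and Rfc5 did not. Of the 13 in MPPs over LT cells, 4 passed under all 14 other settings (Mcm6, Pola1, Prim1 and Pole). Of the 16 in MPPs against ST cells, 6 did so (Cdt1, Mcm4, Pole, Rpa3, Tyms and Dut).

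Of the 11 licensing genes, Mcm5, Mcm6 and Mcm7 were higher in MPPs than in LT cells. Mcm6 was at 272, 301 and 249 CPM in MPP oil libraries, at 177, 175 and 206 CPM in ST oil libraries and at 193, 189 and 169 CPM in LT oil libraries. All MPP libraries were above all others, and the log2 fold change was 0.57 against LT cells (adjusted p = 0.0011) and 0.55 against ST cells (adjusted p = 0.000913). Mcm5 was at 99.3, 119 and 82 CPM in MPPs, 89.4, 88.3 and 101 CPM in ST cells and 75.8, 72.5 and 58.1 CPM in LT cells. It was lowest in LT cells (log2 fold change 0.53 for MPPs and 0.44 for ST cells, adjusted p = 0.0174 and 0.0329). The call of ST over LT cells was lost without the trend and robust settings, without LT oil library C or without any 1 of the ST oil libraries, and that of MPPs over LT cells under 5 of 14 settings. The call of Mcm6 in MPPs over ST cells was lost with quantile normalisation. Orc6 had another order, at 19.3, 22.2 and 24.7 CPM in MPPs, 41, 52.2 and 30.6 CPM in ST cells and 20.9, 21.4 and 21.6 CPM in LT cells. ST cells stood above both other populations, with a log2 fold change of 0.89 over LT cells (SE 0.19, adjusted p = 0.000624). Only Orc6 and Mcm5 among the 11 licensing genes passed in ST against LT cells, and the median of the 11 was 0.02. Cdt1, Mcm2, Mcm4 and Mcm6 passed as higher in MPPs than in ST cells.

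Helicase activators were higher in ST cells than in LT cells for 4 of 6 genes (Mcm10, Cdc45, Gins1 and Gins3). Gins1, a GINS subunit, was at 15, 18.8 and 19.1 CPM in MPPs, 26.8, 28.7 and 22.4 CPM in ST cells and 13.2, 8.75 and 6.82 CPM in LT cells. Cdc45, the helicase cofactor, was at 30.9, 36.2 and 28.6 CPM in MPPs, 31.4, 38.6 and 26.2 CPM in ST cells and 21.8, 17.9 and 18.8 CPM in LT cells. For both genes no LT library reached an MPP or ST library. Gins1 had a log2 fold change of 0.85 in MPPs and 1.39 in ST cells over LT cells (adjusted p = 0.0238 and 0.000203), and Cdc45 had 0.68 in both (adjusted p = 0.0096 and 0.0061). In MPPs over LT cells the call of Gins1 was lost without MPP oil library 2 or 3 and without LT oil library B or C, and that of Cdc45 without MPP oil library 2 or LT oil library B. The adjusted p there reached 0.15 for Gins1 and 0.0693 for Cdc45.

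Pola1, Prim1 and Prim2, of the 4 genes of polymerase alpha-primase, were higher than in LT cells both in MPPs and in ST cells. Prim1 was at 60.1, 87.2 and 69.6 CPM in MPPs, 110.4, 106 and 90.7 CPM in ST cells and 46.4, 41.3 and 38 CPM in LT cells. The 3 populations formed 3 steps with no overlap, with a log2 fold change of 1.27 for ST over LT cells (SE 0.15, adjusted p = 4.28e-07), 0.76 for MPPs over LT cells and -0.51 for MPPs over ST cells. The last was lost without MPP oil library 1. Pola1, the catalytic subunit of polymerase alpha, was at 173, 199 and 182 CPM in MPPs, 195, 159.6 and 121 CPM in ST cells and 99.7, 96.8 and 92.9 CPM in LT cells. It was higher than in LT cells in MPPs by 0.93 (adjusted p = 1.55e-05) and in ST cells by 0.68 (adjusted p = 0.000471), on the log2 scale.

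In the main fit, the subunits of polymerase epsilon passed in different comparisons. Pole, its catalytic subunit, was at 181, 210.1 and 168 CPM in MPPs, 136, 91.3 and 98.1 CPM in ST cells and 114, 96.8 and 83.4 CPM in LT cells. All MPP libraries were above all others, by 0.92 over LT cells and 0.79 over ST cells on the log2 scale (adjusted p = 0.000111 and 0.00042). Pole2, the accessory subunit, was at 17.2, 23.9 and 27.3 CPM in MPPs, 37.7, 34 and 27.1 CPM in ST cells and 15.7, 20.6 and 10.4 CPM in LT cells. It passed in ST over LT cells (log2 fold change 1.07, adjusted p = 0.000665) and in no other oil comparison. Pold1 and Pold2 passed in none in the main fit. With length and GC trends removed, as described below, Pole, Pole2 and Pold1 all passed as higher in ST than in LT cells.

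The clamp was highest in ST cells. Pcna was at 288, 326 and 268 CPM in MPPs, 493, 491 and 378 CPM in ST cells and 236, 201 and 188 CPM in LT cells. The populations did not overlap, and ST cells were higher than LT cells by 1.12 (SE 0.14, adjusted p = 7.41e-07), with MPPs 0.50 above LT cells and -0.62 relative to ST cells. The call of MPPs over LT cells was lost under 5 of 14 other settings, among them quantile normalisation. Rfc4, a small subunit of the clamp loader, was at 23.6, 30.5 and 21.3 CPM in MPPs, 66.3, 47.9 and 35.9 CPM in ST cells and 17, 16.3 and 21 CPM in LT cells. It was higher in ST than in LT cells by 1.38 on the log2 scale, and MPPs over ST cells had a log2 fold change of -0.94. Rfc1, the large subunit, was at 153, 175 and 169 CPM in MPPs, 129.5, 117 and 139.7 CPM in ST cells and 125, 115 and 114 CPM in LT cells. All MPP libraries were above the others (log2 fold change 0.48 over LT cells and 0.36 over ST cells, adjusted p = 0.0116 and 0.0406). The call over ST cells was lost under 7 of 14 other settings (adjusted p 0.0277 to 0.555), with quantile normalisation, without the trend and robust settings, with length and GC trends removed, and without MPP oil library 2 or 3 or ST oil library A or B. The call over LT cells was lost with quantile normalisation and without MPP oil library 2 or LT oil library B or C.

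The 3 subunits of RPA also passed in different comparisons. Rpa3, the smallest subunit, was at 11.8, 15.9 and 13.3 CPM in MPPs, 36.7, 36.9 and 35.3 CPM in ST cells and 14.9, 13.3 and 6.82 CPM in LT cells. The ST libraries lay far above the rest (log2 fold change 1.62 over LT cells, SE 0.25, adjusted p = 1.83e-05; -1.36 for MPPs over ST cells, adjusted p = 0.000135). Rpa2 was at 35, 48.6 and 36.3 CPM in MPPs, 55.5, 55.5 and 42.1 CPM in ST cells and 31.4, 35.4 and 29.9 CPM in LT cells. It passed in ST over LT cells (0.64, adjusted p = 0.0079). Rpa1 was at 74.2, 76.9 and 63.8 CPM in MPPs, 42.3, 54.2 and 61.7 CPM in ST cells and 64.9, 60.2 and 56.7 CPM in LT cells. It was higher in MPPs than in ST cells (log2 fold change 0.45, adjusted p = 0.0198). That adjusted p spanned 0.0069 to 0.219, and the call was lost with quantile normalisation, with length and GC trends removed, and without MPP oil library 1, MPP oil library 2 or ST oil library A.

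Of the lagging-strand pair, Lig1 (DNA ligase 1) was at 157, 171 and 125 CPM in MPPs, 132, 112 and 119 CPM in ST cells and 121, 104 and 74 CPM in LT cells. It passed in MPPs over LT cells (log2 fold change 0.61, adjusted p = 0.0078), a call lost with only the groups compared in the fit and without MPP oil library 2 or LT oil library C, and Fen1 passed in no oil comparison. Among nucleotide genes, Tyms was at 81.2, 90.1 and 87.3 CPM in MPPs, 213, 184 and 113 CPM in ST cells and 89.3, 73.9 and 60.3 CPM in LT cells. ST cells were highest although library C lay well below A and B (log2 fold change 1.15 over LT cells, adjusted p = 7.43e-05). Tk1 was at 45.3, 52.6 and 43.7 CPM in MPPs, 96.6, 87.3 and 55 CPM in ST cells and 34.1, 49.1 and 29.1 CPM in LT cells. Dut was at 52, 67.2 and 57.7 CPM in MPPs, 109.8, 108 and 85.2 CPM in ST cells and 67.2, 71.2 and 55 CPM in LT cells. Both were higher in ST than in LT cells (log2 fold change 1.06 and 0.64) and lower in MPPs than in ST cells (-0.71 and -0.77). The MPP call of Tk1 was lost without ST oil library A or B. Rrm1 was at 173, 218 and 194 CPM in MPPs, 180.2, 170.5 and 155 CPM in ST cells and 158, 152 and 122 CPM in LT cells, and passed in MPPs over LT cells (0.44, adjusted p = 0.0225), a call lost under 5 of 14 other settings.

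These population differences moved with transcript length. Over the 41 members, the log2 fold change of ST over LT cells in oil correlated with log2 length of the longest annotated transcript at Pearson r = -0.58, and over 13693 genes at -0.39 (across genes, which are not independent replicates). For MPPs over ST cells the values were 0.67 for members and 0.39 for all genes, and for MPPs over LT cells 0.11 and -0.00. Rpa3, with the shortest transcript (682 bases), was the member highest in ST over LT cells, and Pole, with the longest (7163 bases), was the member highest in MPPs over ST cells. With length and GC trends removed, an alternative chosen after seeing the data, 21 members passed in ST over LT cells and 12 in MPPs over ST cells. For ST over LT cells the log2 fold change was then 0.83 for Rpa3, 0.90 for Rfc4, 0.74 for Pcna, 0.91 for Gins1 and 0.50 for Orc6, all still past the threshold, and Prim2 no longer passed. Prim1 at 1.18 and Tyms at 1.21 moved less. For MPPs over ST cells Rpa3 was at -0.77 and Pole at 0.46, both still past the threshold, and Orc6, Pcna, Rfc1, Rfc4 and Rpa1 no longer passed. In the tamoxifen comparison of ST cells the correlation was 0.32 for members and 0.16 for all genes, and the 9 calls there were the same 9 with the trends removed. The titles number the ST libraries anew, and the sources used here do not say whether they were prepared apart, so preparation and population cannot be told apart for ST cells.

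**Figure D4:**
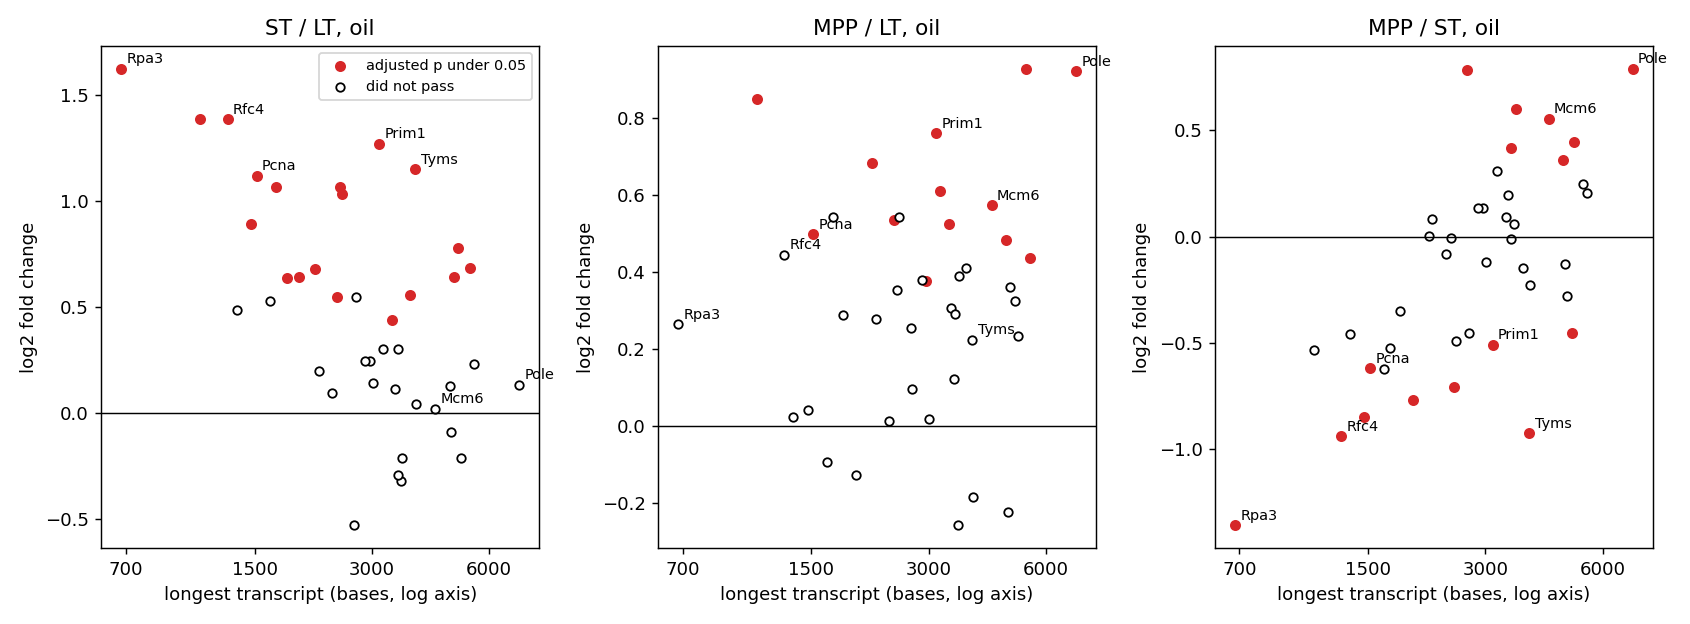
Log2 fold change between populations in oil for the 41 members against the length of the longest annotated transcript (log axis, bases), filled red where the adjusted p was under 0.05. Short transcripts such as Rpa3 and Rfc4 lie high for ST over LT cells and low for MPPs over ST cells, and no such slope is seen for MPPs over LT cells.

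Markers of other cells also differed between these populations. The neutrophil genes summed to 933 to 1725 CPM in MPP, 1529 to 1980 CPM in ST and 147 to 209 CPM in LT oil libraries. The erythroblast markers summed to 478 to 589 CPM, 583 to 786 CPM and 1314 to 1527 CPM in the same order of populations. Macrophage and monocyte genes summed to 374 to 410 CPM, 505 to 724 CPM and 243 to 276 CPM in that order. T and NK cell genes summed to 65.2 to 88.8 CPM, 114 to 131 CPM and 24.2 to 49.2 CPM. Stroma and endothelium genes summed to 153 to 165 CPM, 85.7 to 116 CPM and 65.3 to 87 CPM. The sums of B cell genes overlapped between the populations. Their part in the members' differences was not tested.

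Among tamoxifen libraries, 23 members were higher in ST than in LT cells and 0 lower, where 12.5% of all genes were higher and 11.1% lower. Cdc45 had the smallest p, at 45.9 ± 5.35 CPM in ST cells and 19.6 ± 2.95 CPM in LT cells (log2 fold change 1.19, SE 0.18, adjusted p = 3.59e-05). MPPs had 5 members higher than LT cells (Mcm5, Mcm7, Cdc45, Pola1 and Rfc2) and 2 lower (Orc1 and Orc2), where 9.36% of all genes were higher and 8.34% lower. Orc2 averaged 53.6 ± 2.76 CPM in MPPs and 83.3 ± 11.5 CPM in LT cells with tamoxifen (log2 fold change -0.62, adjusted p = 0.0034). Against ST cells, MPPs had 0 members higher and 9 lower (Orc2, Orc6, Gins2, Gins4, Prim1, Pcna, Rfc4, Rpa3 and Tk1), where 9.84% of all genes were higher and 9.72% lower. Mcm2, Mcm4 and Mcm6, which were higher in MPPs than in ST cells in oil, did not pass there. The means of Mcm6 with tamoxifen were 298 ± 27.7 CPM in MPPs, 290.3 ± 10.7 CPM in ST cells and 243.8 ± 28.2 CPM in LT cells. For MPPs over ST cells, 5 members passed with length and GC trends removed. Calls that passed under all other settings tried numbered 16 of 23 for ST over LT cells, 5 of 7 for MPPs over LT cells (all but Mcm7 and Rfc2) and 4 of 9 for MPPs over ST cells (Orc2, Prim1, Rfc4 and Rpa3).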

How the data were processed

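RNA of 18 libraries was measured by sequencing amplified cDNA. The authors deposited 1 table of normalised values, treated here as a signal on a linear scale. Per the submitters' processing notes, Picard, cutadapt, RSEM 1.17 and limma were used with build NCBIM37. The sources used here do not give the scaling, the annotation or the strand setting. Every gene reached 1 in at least 6 libraries. In each library 100.0% of the values were a whole number of reads plus 0.5, within 0.001 read, times 1 constant that differed between libraries, the form of CPM with a further scaling factor, and they are called normalised CPM. The recovered reads may be rounded estimates.

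Values were compared on log2(value + 1) with limma 3.58.1 (trend and robust, R 4.3.3, statmod 1.5.0) in 1 fit of 18 libraries, with Benjamini-Hochberg adjustment over 14419 genes at 0.05. Log2 fold changes are on that scale and understate changes of low genes. EdgeR 4.0.16 (quasi-likelihood) and DESeq2 1.42.0 on the recovered reads, other normalisations and filters, and leaving out each library were alternatives. The limma fit was tested on simulated data. P-values measure the spread between libraries.

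Members and lists were chosen with earlier results of these data known. Libraries' values are given, per comparison and role, for up to 2 called members with the smallest p, or for the 1 with the smallest p where none was called. Other members named with values were chosen after their values were seen. The pseudogenes Pcna-ps1, Pcna-ps2 and Tyms-ps have no row of their own, and reads they share with their parent genes cannot be told apart. The marker lists with no result in the text above (T and NK cells, macrophages and monocytes, stroma and endothelium) summed in ST cells to 101 to 136, 593 to 680 and 129 to 130 CPM with tamoxifen and to 114 to 131, 505 to 724 and 85.7 to 116 CPM with oil.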

Additional observations from a re-analysis of the deposited data

How the results depend on the processing

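No call reversed its direction under the settings run. Among members that did not pass, Rpa3 in ST cells with tamoxifen had a log2 fold change of -0.14, and 0.22 with length and GC trends removed. The members' median of the ST minus LT tamoxifen effect was 0.07, and -0.00 with quantile normalisation. The counts of members called in the tests of ST minus LT, ST minus MPP and LT minus MPP tamoxifen effects, and in MPPs with tamoxifen, were 0 under every setting run. In ST cells with tamoxifen, 9 members became 4 with quantile normalisation and 5 to 8 when 1 library was left out. In LT cells with tamoxifen, 0 became 1 with a stricter filter on low values, 1 with quantile normalisation, 1 in edgeR, 5 in DESeq2 and 2 with length and GC trends removed, and 0 to 4 when 1 library was left out. In MPPs against LT cells in oil, 13 became 8 with quantile normalisation, 8 without the trend and robust settings, and 4 to 14 when 1 library was left out. In MPPs against ST cells with tamoxifen, 9 became 5 with length and GC trends removed and 6 to 8 when 1 library was left out. The cause was not tested. The numbers and letters in the titles were checked for pairing by correlating deviations from group means. For tamoxifen and oil in ST cells, same-letter libraries had r of 0.11, -0.00 and -0.01. The sources used here do not say what the numbers and letters stand for. With a replicate block the count was 9 in ST cells with tamoxifen, 0 in LT cells, 0 in MPPs, 19 in ST against LT cells in oil and 25, against 23 without it, in ST against LT cells with tamoxifen. In both ST against LT comparisons each library correlated best with its own letter. For letters A, B and C, r was 0.05, 0.05 and 0.10 in oil and 0.14, 0.08 and 0.09 with tamoxifen. This is a hint of pairing from the data and not the design, and the main fit does not use it. Depth limits the members near the lowest 16 reads.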
